A study of Leptinotarsa decemlineata with 6 samples.

Results

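The genes described here were the gustatory receptors, ionotropic receptors, sensory neuron membrane proteins (SNMPs) and pickpocket channels of the Colorado potato beetle (CPB), a leaf beetle that feeds on potato. They were chosen by annotation: the best match in the NR or Swissprot protein database named a gustatory receptor, an ionotropic receptor, an SNMP or a pickpocket protein and no odorant receptor, and the mean was at least 0.5 TPM in the antibiotic or in the non-treatment libraries. TPM is a length-corrected expression level in which the values of all genes in a library add up to 1000000. The annotation named 57 of 236706 genes, and 29 of the 57 reached the threshold: 10 gustatory receptors, 2 ionotropic receptors, 4 SNMPs and 13 pickpocket channels. The threshold used the measured group means, so how the members passed it is a description: 19 passed in both groups, 2 in the antibiotic group only and 8 in the non-treatment group only. The nearest inside were 2 GR9-like genes with higher group means of 0.505 and 0.560 TPM, and the nearest outside were a GR9-like and a GR10-like gene, both at 0.404 TPM.

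The libraries were made from adult CPBs, 3 of the antibiotic group and 3 of the non-treatment group, all labelled wild type and head. According to the methods, the antibiotic group ate potato leaves soaked in a mixture of ampicillin, ofloxacin, tetracycline, ciprofloxacin and penicillin with Tween-20 for 3 days. In the methods of the behavior test the control leaves were soaked with Tween-20 without antibiotics. The study's expression figure legend instead describes non-treatment beetles as given fresh leaves only, so it is not settled whether the RNA controls received Tween-20. The sources used here do not give the concentration for the beetles used for RNA, their sex or the number of heads in a library. The labels also call the material olfactory cells and a cell line, while the methods name whole heads, which hold many cell types. Nothing states that the replicates came from separate batches of beetles, so the p-values measure the spread between these libraries, which may be technical.

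Insects taste through neurons in hairs on the mouthparts, antennae and legs. Gustatory receptors are ion channels of these neurons that open to sugars, bitter compounds or carbon dioxide, and ionotropic receptors are a second channel family, derived from glutamate receptors, in which a tuned subunit works with a broadly used coreceptor. SNMPs are membrane proteins of the CD36 family that help to bring lipid-like odors such as pheromones to their receptors, and pickpocket proteins are sodium channels of the DEG/ENaC family that serve water and salt taste, touch and pheromone contact in Drosophila.

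The labelled tissue was checked against marker genes before the members were read, and the groups differed. The rhodopsin gene TRINITY_DN52274_c7_g1, the light receptor of photoreceptors, had 161, 212 and 138 TPM in antibiotic libraries and 0.592, 0.639 and 0.252 TPM in non-treatment libraries. The gene matching abdominal-B, which patterns the hind body, had 0.0651, 0.0190 and 0.0130 TPM in antibiotic libraries, against 1.18, 1.21 and 1.56 TPM in non-treatment libraries. Opsin Rh3, another light receptor, and the arrestin homolog TRINITY_DN59620_c3_g2, which ends the light response, followed rhodopsin, at 28.9 to 46.5 and 89.7 to 125 TPM in antibiotic libraries and at 0.604 to 1.82 and 0.292 to 0.553 TPM in non-treatment libraries. These defining markers of the eye were thus near 0 in the libraries labelled non-treatment head. Over whole marker lists, the eye list summed to 489 to 660 TPM in antibiotic libraries and 146 to 167 TPM in non-treatment libraries (9 of 29 tested genes called higher, 1 lower), the muscle list to 31117 to 33471 against 8557 to 14561 TPM (19 of 58 higher, 2 lower), and the neuron list to 472 to 646 against 596 to 656 TPM (3 of 25 higher, 2 lower). The lists were picked by annotation words, and abundant genes of the neuron list went both ways. ELAV-like protein 3 had 64.1, 67.9 and 85.0 TPM in antibiotic libraries and 21.3, 22.1 and 25.2 TPM in non-treatment libraries. Synaptotagmin-15 had 71.8, 107 and 108 TPM in antibiotic libraries and 183, 157 and 228 TPM in non-treatment libraries. The sum of this list is thus no measure of neuron content. The sperm and axoneme list had 40 of 67 tested genes called lower and 2 higher, with sums of 1036 to 1309 TPM in antibiotic libraries and 1222 to 2369 TPM in non-treatment libraries, and the midgut list had 33 of 113 called lower and 2 higher, with sums of 5367 to 7520 against 8200 to 21607 TPM. Of all genes in the limma test described below, 1.44% were called higher and 3.84% lower. The part of tissue makeup in the differences of the members was not tested, and treatment and tissue makeup cannot be told apart in this design. In whole tissue, fewer cells of a type and less RNA per cell also cannot be told apart.

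Differences are given as antibiotic minus non-treatment on the log2(TPM + 1) scale with their standard error (SE) from limma, which fits all genes together; a gene was called at a Benjamini-Hochberg adjusted p under 0.05 over the 57621 genes with a mean of at least 0.5 TPM in a group. This scale understates the change of low genes. Among the 29 members, 2 were called higher, beside 1.44% of all tested genes, and 1 was called lower, beside 3.84%, so that 3 were called in either direction beside 5.28%. At an unadjusted limma p under 0.05 there were 6 members higher and 6 lower, beside 5.71% and 12.7% of all tested genes. The groups did not overlap for 5 members that were higher and 7 that were lower in antibiotic libraries, beside 7.98% and 17.3% of all tested genes (25.2% in either direction). The median difference was 0.11 for the members and -0.13 for all tested genes, and 8 members entered only through a high non-treatment mean, so these counts do not describe the families as a whole. With a filter that does not use the groups, a mean of at least 0.5 TPM over all 6 libraries, 22 members were tested, of which 2 were called higher and 1 lower, beside 2.16% and 5.56% of 42709 genes. The members called were 2 pickpocket channels and 1 gustatory receptor-like gene.

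**Figure D1:**
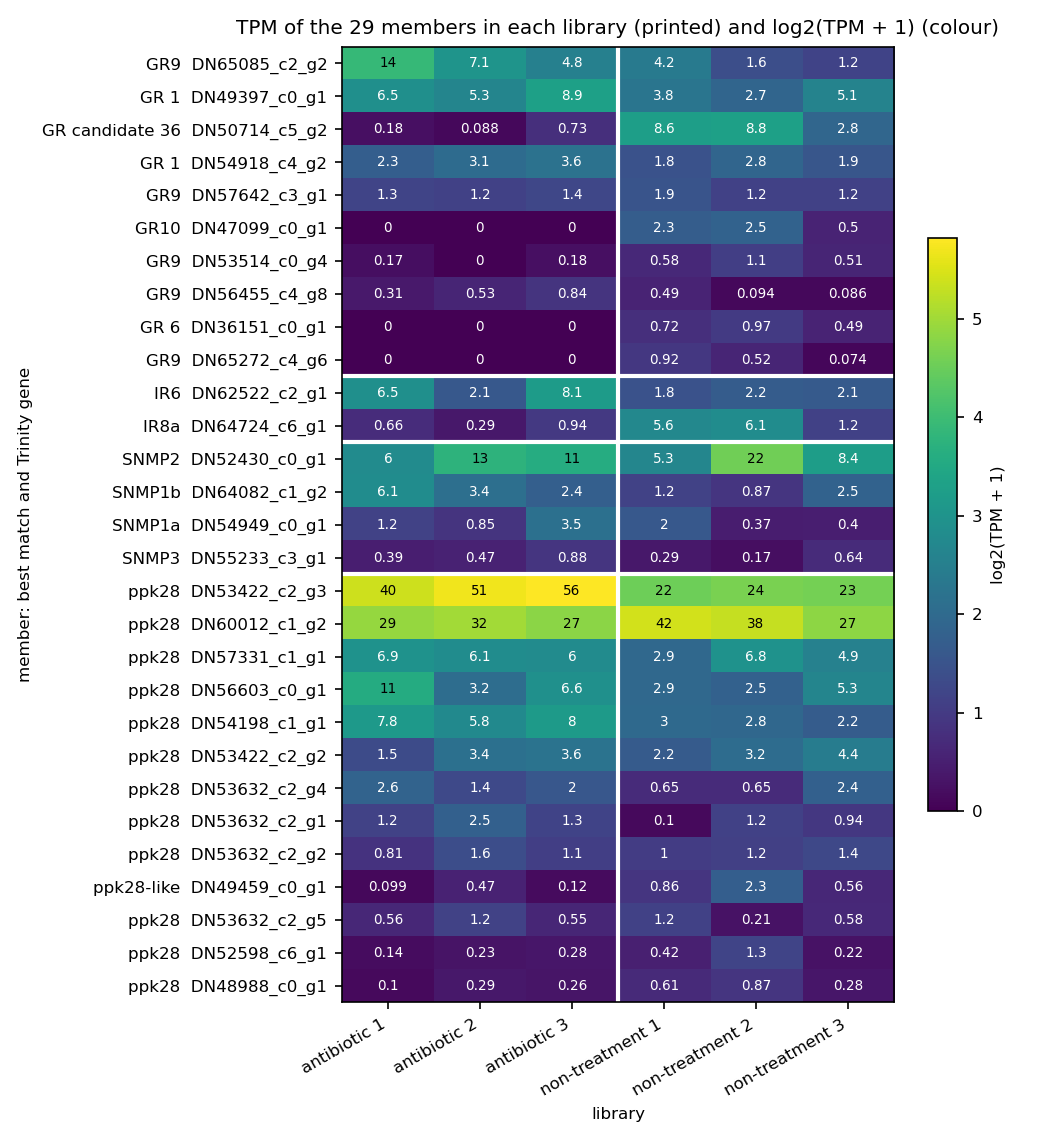
TPM of the 29 members in each of the 6 libraries, antibiotic on the left. The printed values are TPM, the colour is log2(TPM + 1), and rows are grouped as gustatory receptors, ionotropic receptors, SNMPs and pickpocket channels; the highest values are those of the pickpocket genes DN53422_c2_g3 and DN60012_c1_g2, and 3 gustatory rows are at 0 in all antibiotic libraries.

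The pickpocket channels held most of the TPM of the 4 families. Their 13 genes summed to 102, 108 and 113 TPM in antibiotic libraries and to 79.7, 85.3 and 74.1 TPM in non-treatment libraries. The lowest antibiotic sum lay above the highest non-treatment sum. Most of the TPM came from 2 genes, written here, like the others, without the TRINITY_ prefix. These were DN53422_c2_g3 with a mean of 36.0 TPM and DN60012_c1_g2 with 32.5 TPM over all 6 libraries. Only DN53422_c2_g3 had the higher mean in antibiotic libraries, at 48.9 against 23.2 TPM. DN60012_c1_g2 had 29.1 against 35.8 TPM. All 13 had Drosophila pickpocket protein 28 as best Swissprot match, the channel by which Drosophila taste neurons detect water. The DEG/ENaC domain (ASC in Pfam) was annotated in 6 of the 13. It was not annotated in DN60012_c1_g2, whose NR match is a hypothetical protein and whose Swissprot match is weak (E value 2.0e-08).

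DN53422_c2_g3 rose in the antibiotic group. It had 40.4, 50.8 and 55.5 TPM in antibiotic libraries, against 22.1, 24.0 and 23.5 TPM in non-treatment libraries. Every antibiotic library was above every non-treatment library, with a mean 2.11 times as high, and the difference was 1.03 (SE 0.208, limma adjusted p = 0.0274). The gene shares its Trinity cluster, a set of transcripts the assembler could not fully separate, with DN53422_c2_g2, which had 1.53, 3.45 and 3.65 TPM in antibiotic libraries and 2.20, 3.16 and 4.41 TPM in non-treatment libraries, with overlapping groups. Since reads may be split between such neighbours, their sum was also taken. It was 41.9, 54.2 and 59.2 TPM in antibiotic libraries and 24.3, 27.1 and 27.9 TPM in non-treatment libraries, again without overlap.

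DN54198_c1_g1 rose as well. It had 7.81, 5.79 and 7.96 TPM in antibiotic libraries, against 2.96, 2.84 and 2.24 TPM in non-treatment libraries. The groups were far apart relative to their spread, with means of 7.19 ± 1.21 TPM and 2.68 ± 0.387 TPM (SD, n = 3 each), and the difference was 1.15 (SE 0.227, limma adjusted p = 0.0257). Leaving out any 1 of the 6 libraries ended both calls: the adjusted p was then 0.0597 to 0.127 for DN54198_c1_g1 and 0.0538 to 0.114 for DN53422_c2_g3, with log2 differences of 1.06 to 1.28 and 0.94 to 1.16. On the estimated counts of the 5 libraries that have them, both were called higher by edgeR and by DESeq2. With no filter on low values in limma neither was called, at adjusted p of 0.0815 for DN54198_c1_g1 and 0.107 for DN53422_c2_g3. The non-treatment libraries differed from the antibiotic ones in eye and muscle markers too, as given above, and the part of this in the 2 genes was not tested.

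**Figure D2:**
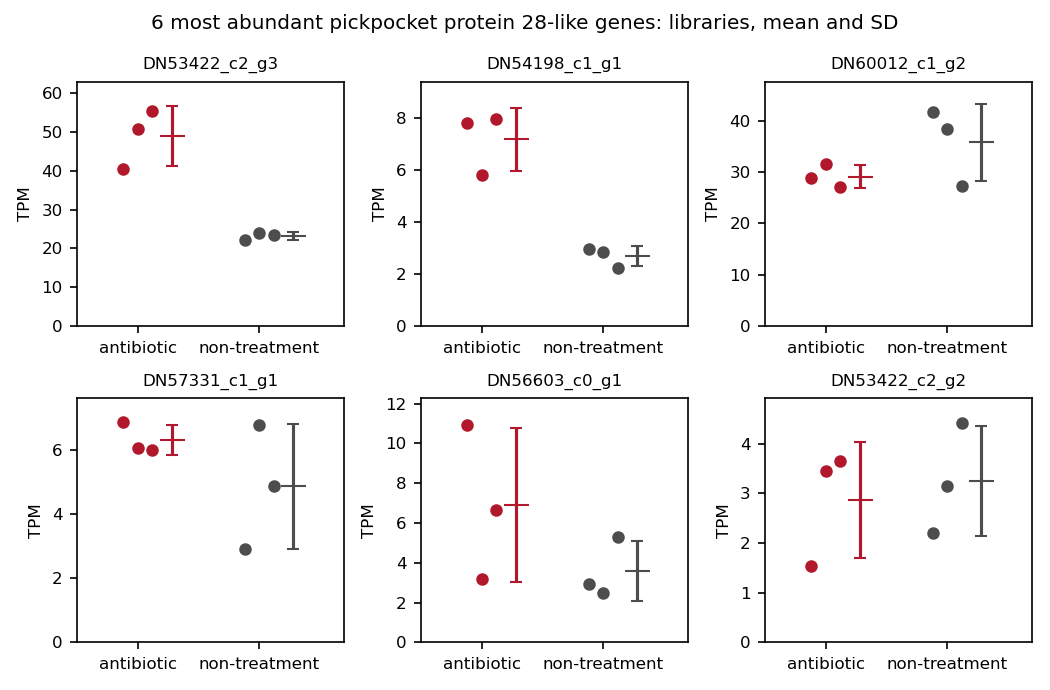
TPM of the 6 most abundant pickpocket protein 28-like genes, each axis starting at 0, with antibiotic libraries (red) left of non-treatment libraries (grey). Points are libraries and the bar beside them is the mean with its SD (n = 3); the groups stand apart for DN53422_c2_g3 and DN54198_c1_g1 and overlap for the other 4.

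The remaining 11 pickpocket genes did not pass the limma test, and their values did not go one way. DN60012_c1_g2 had 28.8, 31.5 and 27.1 TPM in antibiotic libraries, against 41.7, 38.4 and 27.3 TPM in non-treatment libraries. Its difference was -0.27 (95% interval -0.79 to 0.25, limma adjusted p = 0.523), so neither a moderate decrease nor a small increase is outside the interval. DN57331_c1_g1 averaged 6.32 ± 0.477 TPM in antibiotic libraries and 4.87 ± 1.95 TPM in non-treatment libraries, and DN56603_c0_g1 averaged 6.93 ± 3.87 and 3.58 ± 1.52 TPM (SD, n = 3 each), with overlapping groups in both. Among 4 genes of the cluster DN53632_c2, DN53632_c2_g1 had 1.21, 2.46 and 1.26 TPM in antibiotic libraries and 0.101, 1.19 and 0.937 TPM in non-treatment libraries, without overlap, and the other 3 overlapped. The cluster as a whole overlapped too, at 5.21, 6.69 and 4.93 TPM in antibiotic libraries and 2.98, 3.20 and 5.34 TPM in non-treatment libraries. DN49459_c0_g1 was low in every antibiotic library, with 0.0990, 0.466 and 0.119 TPM, against 0.856, 2.31 and 0.557 TPM in non-treatment libraries (difference -0.80, SE 0.333, limma adjusted p = 0.250). On the counts of 5 libraries DESeq2 called it lower (adjusted p = 0.0112) and edgeR did not (0.114). DN49459_c0_g1 became a member only through its non-treatment mean, so the choice of members favoured this direction.

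The 10 gustatory receptor-like genes were rarer and less surely identified. They summed to 24.8, 17.3 and 20.3 TPM in antibiotic libraries and to 25.2, 22.4 and 13.8 TPM in non-treatment libraries, with full overlap, while single genes differed in both directions. A receptor or receptor-like Pfam domain was annotated in only 2 of the 10, the 7tm_7 and the trehalose receptor domains. DN54918_c4_g2 carried an enzyme domain instead: its NR match is a longhorn beetle gustatory receptor 1, but its Swissprot match is the Drosophila CDP-diacylglycerol synthase of photoreceptors, a lipid enzyme of the eye. That gene had overlapping groups, at 2.34, 3.12 and 3.56 TPM in antibiotic libraries and 1.76, 2.76 and 1.92 TPM in non-treatment libraries.

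The gene that fell was DN50714_c5_g2, whose best match is gustatory receptor candidate 36 of the flour beetle Tribolium castaneum. It had 0.180, 0.0884 and 0.728 TPM in antibiotic libraries, against 8.60, 8.85 and 2.76 TPM in non-treatment libraries. No library overlapped, the means were 0.332 ± 0.346 TPM in antibiotic and 6.74 ± 3.45 TPM in non-treatment libraries (SD, n = 3 each), and the difference was -2.44 (SE 0.409, limma adjusted p = 0.0125). The match is weak (E value 9.1e-06) and no domain was annotated, so its identity as a receptor is uncertain. The call held without non-treatment replicate 3, and was lost without each of the other 5 libraries in turn, with an adjusted p up to 0.139 and differences of -2.90 to -2.20 over all 6. edgeR and DESeq2 on the counts of 5 libraries also called it lower. The gene became a member only through its non-treatment mean, so the choice of members favoured this direction. It also passed the filter that does not use the groups, mostly through its non-treatment values, and was called lower there (limma adjusted p = 0.0120). That fit used the same values of the gene, so it is no separate support for the direction.

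In 3 gustatory genes all antibiotic libraries were listed at 0. Such a gene could enter only through a high non-treatment mean, so their direction was set by the choice of members. DN47099_c0_g1 alone also passed the filter that does not use the groups, there too only through its non-treatment values. DN47099_c0_g1, matching GR10 of the cabbage beetle Colaphellus bowringi, had 2.27, 2.54 and 0.497 TPM in non-treatment libraries, where 65, 75 and 16 fragments were counted. Against a floor of 3 counts over antibiotic replicates 2 and 3 it was at least 37.0-fold lower (limma adjusted p = 0.0735). DN36151_c0_g1, matching Tribolium gustatory receptor 6 and Drosophila Gr64e, a sugar receptor subunit, had 0.717, 0.971 and 0.487 TPM in non-treatment libraries (limma adjusted p = 0.131). DN65272_c4_g6, GR9-like, had 0.917, 0.524 and 0.0740 TPM in non-treatment libraries (limma adjusted p = 0.351). None of the 3 passed the limma test. The count tests on 5 libraries are no separate support for a direction that the choice of members set, and are given as values only. DN47099_c0_g1 was called lower by edgeR (adjusted p = 0.0407) and DESeq2 (1.75e-05), and DN36151_c0_g1 by edgeR (0.0234) and DESeq2 (0.00439). DN65272_c4_g6 was called lower by DESeq2 (0.0204) but not by edgeR (0.129). The floor covers counting error only, and the 0 in antibiotic replicate 1 has no count behind it here.

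The 5 members that match the same protein, GR9 of Colaphellus bowringi, did not move together. DN65085_c2_g2 was high in antibiotic libraries, with 14.0, 7.09 and 4.78 TPM, against 4.16, 1.64 and 1.24 TPM in non-treatment libraries (difference 1.51, SE 0.434, limma adjusted p = 0.104). DN53514_c0_g4 went the other way, at 0.168, 0 and 0.184 TPM in antibiotic libraries and 0.583, 1.10 and 0.507 TPM in non-treatment libraries, as did DN65272_c4_g6. Both became members only through their non-treatment mean, so the choice of members favoured this direction. DN57642_c3_g1 was nearly level at 1.28 ± 0.0978 TPM in antibiotic and 1.41 ± 0.397 TPM in non-treatment libraries, and DN56455_c4_g8 overlapped at 0.560 ± 0.268 and 0.222 ± 0.229 TPM (SD, n = 3 each). All 5 matches were distant, with E values between 3.7e-12 and 1.6e-06, and a domain was annotated in 1 of them. DN49397_c0_g1, matching gustatory receptor 1 of the same beetle, had 6.45, 5.25 and 8.87 TPM in antibiotic libraries and 3.81, 2.73 and 5.06 TPM in non-treatment libraries (difference 0.69, limma adjusted p = 0.234).

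Both ionotropic receptors above the threshold matched coreceptors, and their values lay in opposite directions. DN62522_c2_g1, whose Swissprot match is Drosophila IR25a, a coreceptor needed by many tuned ionotropic receptors, had 6.47, 2.05 and 8.15 TPM in antibiotic libraries, against 1.77, 2.25 and 2.14 TPM in non-treatment libraries. Replicate 2 of the antibiotic group lay among the non-treatment values, and the difference of 0.96 (SE 0.401) did not pass the test (limma adjusted p = 0.252). DN64724_c6_g1, matching IR8a of Colaphellus bowringi, with IR8a known as the coreceptor of acid-sensing receptors in Drosophila, had 0.661, 0.288 and 0.940 TPM in antibiotic libraries, against 5.59, 6.14 and 1.18 TPM in non-treatment libraries. The groups did not overlap, but non-treatment replicate 3 lay close to the antibiotic values, and the difference of -1.54 (SE 0.458) did not pass either (limma adjusted p = 0.115). DESeq2 on the counts called it lower (adjusted p = 0.0498) and edgeR did not (0.161). The difference between the 2 receptors' changes was not tested.

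**Figure D3:**
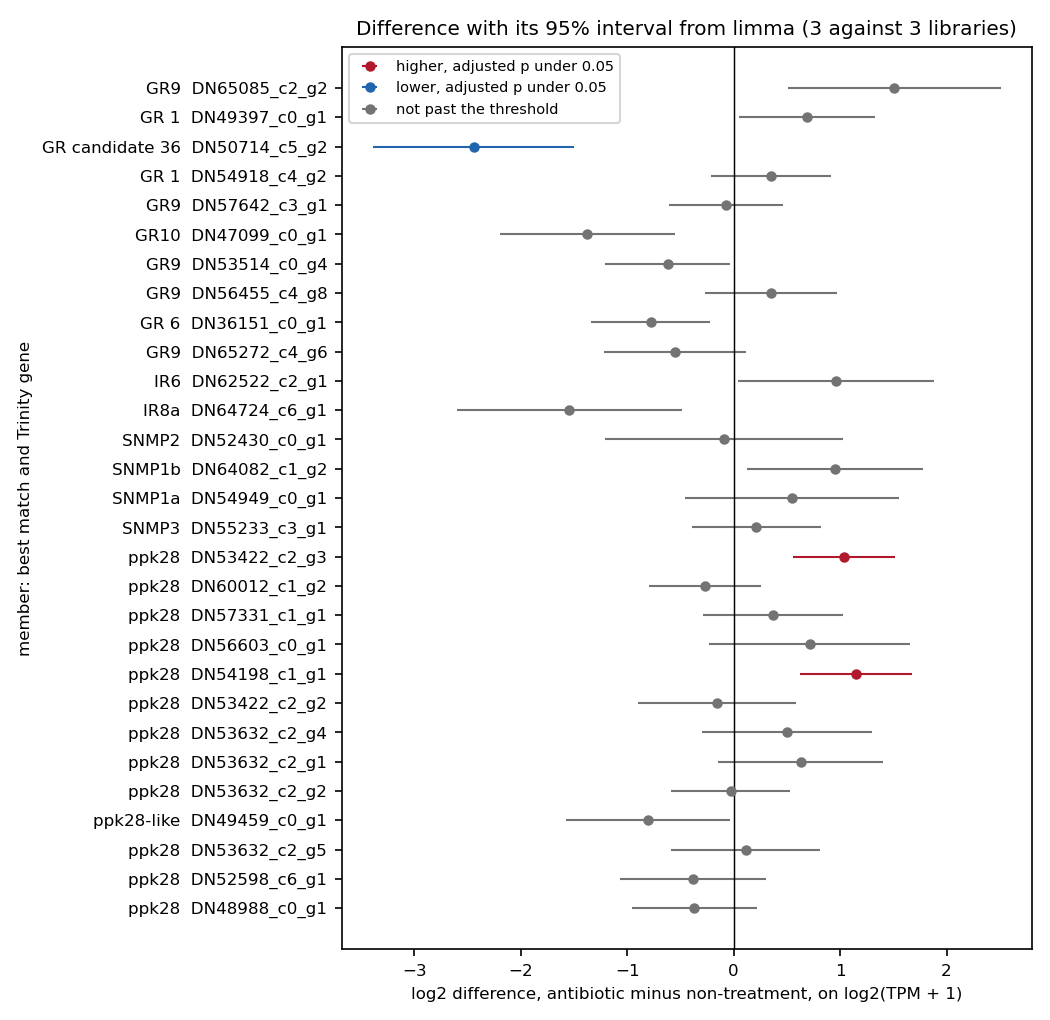
Difference of each member, antibiotic minus non-treatment on log2(TPM + 1), with its 95% interval from limma over 3 against 3 libraries; families run down the page as gustatory, ionotropic, SNMP and pickpocket. Red marks the 2 genes called higher, blue the 1 called lower and grey the 26 that did not pass the threshold.

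The 4 SNMPs carried the CD36 domain, and none passed the test. DN64082_c1_g2, SNMP1b-like and so related to the Drosophila SNMP1 needed to detect a male pheromone, had 6.10, 3.37 and 2.42 TPM in antibiotic libraries, against 1.21, 0.870 and 2.54 TPM in non-treatment libraries (difference 0.95, SE 0.357, limma adjusted p = 0.205). Only non-treatment replicate 3 reached into the antibiotic range. SNMP1a-like DN54949_c0_g1 had 1.21, 0.845 and 3.45 TPM in antibiotic libraries and 2.03, 0.372 and 0.402 TPM in non-treatment libraries. SNMP2-like DN52430_c0_g1, the most abundant, averaged 9.94 ± 3.49 TPM in antibiotic libraries and 12.1 ± 9.10 TPM in non-treatment libraries (SD, n = 3 each). SNMP3-like DN55233_c3_g1 averaged 0.581 ± 0.259 and 0.365 ± 0.243 TPM. The spread of single libraries was as large as the differences in the last 3 genes.

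Among the 7 members lower in every antibiotic library, the non-treatment libraries were themselves uneven. Non-treatment replicate 3 held 31.7% of the mean of replicates 1 and 2 for DN50714_c5_g2, 20.7% for DN47099_c0_g1, 20.1% for the IR8a-like gene and 10.3% for DN65272_c4_g6. It was below both in all 7, with 60.1% the highest share. Replicate 3 was below the mean of replicates 1 and 2 in 55.3% of all tested genes with a value. The same held for 64.8% of the tested genes that were lower in every antibiotic library. All of the 7 but the IR8a-like gene became members only through their non-treatment mean. Protamine, a sperm chromatin protein, was also lowest there among the non-treatment libraries, although it was highest in replicate 1 and 6 of the 7 members in replicate 2: it was listed at 0 in every antibiotic library, with 516, 408 and 81.8 TPM in non-treatment libraries, and the share of replicate 3 was 17.7%. Over the 40 sperm and axoneme genes called lower the median share was 26.0%, against 82.5% over the 9950 tested genes that, like the 7, were lower in every antibiotic library, 92.1% over all tested genes with a value, 82.0% over the 33 midgut genes called lower and 92.9% over the other 22 members. The 40 were picked from 67 tested genes of that list for being lower, and no median over all 67 is given. Testis-specific kinase 1 (DN63452_c5_g2), not called, had 428, 373 and 651 TPM in non-treatment libraries, so replicate 3 was highest. Outer dense fiber gene DN58124_c3_g3, also not called, was highest in replicate 3 too. Axonemal dynein 10 (DN58913_c2_g2), called higher, was level at 82.9, 76.5 and 82.8 TPM in non-treatment libraries. The low share was thus not found in every gene of the sperm list. Protamine was listed at 0 in antibiotic libraries, but these 3 genes were not. In the order given, they had 651, 531 and 632 TPM, 113, 131 and 184 TPM, and 279, 288 and 417 TPM there. DN42170_c0_g1, which matches an unknown salivary protein, had a share of 27.6%. It had 0, 0.137 and 0 TPM in antibiotic libraries and 46.3, 31.0 and 10.6 TPM in non-treatment libraries. Abdominal-B was different, at 131%. The marker genes set beside the members were chosen after their values were seen, and the part of sperm cells in these members was not tested.

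**Figure D4:**
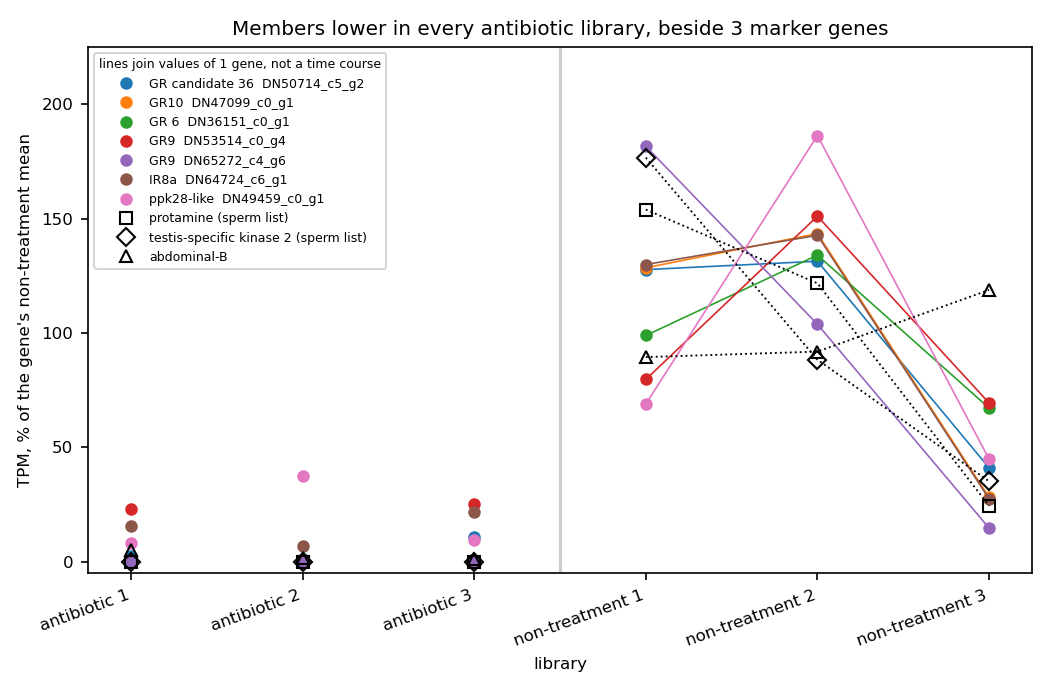
TPM in each library as a percentage of the gene's own non-treatment mean, antibiotic libraries on the left, for the 7 members that were lower in every antibiotic library (filled points) and for protamine, testis-specific kinase 2 and abdominal-B (open points); thin lines join values of 1 gene. All 7 members are lowest among the non-treatment libraries in replicate 3, as are the 2 sperm genes, whereas abdominal-B is highest there. The salivary gene of the text, also lowest there, and the sperm-list genes that were not lowest there are not drawn.

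Relatives outside the 4 families were given as counts from the same fit, in which 1.44% of all tested genes were called higher and 3.84% lower. Of the ionotropic glutamate receptors, the synaptic kin of the ionotropic receptors, 6 of 15 tested genes were called higher and 0 lower; of CD36 and class B scavenger receptors, kin of the SNMPs, 1 of 11 higher and 0 lower; and of other DEG/ENaC sodium channels, kin of the pickpocket proteins, 1 of 6 higher and 0 lower. Among proteins that carry odors to receptors, 8 of 36 odorant-binding proteins and 1 of 11 chemosensory proteins were called higher and 0 lower. Both lists hold DN56401_c3_g3, which was not called (limma adjusted p = 0.207). Odorant receptors had 1 of 18 called in each direction. Their coreceptor Orco, which insect odorant receptors need, was below the threshold, with 0.175, 0.109 and 0.950 TPM in antibiotic libraries and listed at 0 in the non-treatment libraries.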

How the data were processed

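RNA of 6 libraries labelled head was sequenced by the authors on an Illumina platform, and TPM was computed by them with featureCounts according to the methods; the submitters' processing notes name FastQC, Salmon, DESeq2 and the mouse build mm10, while the deposited genes carry Trinity names. The sources used here do not name the aligner. The authors deposited TPM for all 6 libraries and estimated counts, rounded to whole numbers here before any count test. Counts were used for 5 libraries (25397497 to 33613953 in total), because the count column in the data of antibiotic replicate 1 was a copy of that of replicate 2; its depth is unknown. TPM of low genes rests on few fragments. The intervals are limma intervals over libraries, and the floor of 3 counts covers counting error only. None of the best-match accessions of the members was in the RefSeq gene table of the beetle, so no coordinates are given.

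The main test was limma 3.58.1 (R 4.3.3) on log2(TPM + 1), trend on, for genes with a mean of at least 0.5 TPM in a group, with Benjamini-Hochberg adjustment. A two-sided exact permutation test cannot go below 0.1 with 3 libraries against 3. Alternatives were other pseudocounts, filters, scalings and variance models, edgeR 4.0.16, DESeq2 1.42.0, the replicate number as a block, and leaving out each library. Python 3.11.15 with pandas 2.3.3 was used for tables.

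The members and lists were chosen with earlier results of these data known. Named genes were, in each family, the 4 most abundant, the members called, known types (coreceptors, sugar and carbon dioxide receptors, SNMP1 and SNMP2, pickpocket 28) and those nearest the threshold; DN47099_c0_g1, DN53514_c0_g4 and DN57642_c3_g1 were named after their values were seen. Tested on simulated data of this comparison (54281 genes, counts drawn with a common dispersion), limma recovered 20 of 100 genes changed by a log2 fold of 2 and 99 of 100 changed by 4, with 2 unchanged genes called. The changed genes were drawn only from those with a mean of at least 2 TPM over all libraries, so recovery among lower members was not measured.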

Additional observations from a re-analysis of the deposited data

How the results depend on the processing

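Among the 29 members, 2 were called higher in the main test, 0 with no filter on low values and 5 by edgeR without a count filter; leaving out 1 library at a time gave 0 to 0. The count called lower was 1 in the main test, 2 with a pseudocount of 0.1, 3 by edgeR, 3 by edgeR with DESeq2 size factors, 6 by edgeR without a count filter and 6 by DESeq2, and leaving out 1 library gave 0 to 3. The 3 stood without non-treatment replicate 3: DN50714_c5_g2, DN47099_c0_g1 (adjusted p = 0.0119) and DN64724_c6_g1 (0.0168). All 3 calls of the main test were also made under 11 of the 13 alternatives other than leaving out 1 library in turn, the exceptions being no filter (1 of 3) and the replicate block (2 of 3), and none of the 3 changed sign in any alternative. The cause of these changes was not tested.
Over all genes, 831 higher and 2214 lower became 492 higher with no filter, 1349 lower with a pseudocount of 5, 2121 and 4686 by edgeR without a count filter, and 1307 higher by DESeq2; leaving out 1 library gave 48 to 562 higher and 146 to 2619 lower. The median difference was -0.07 with median-of-ratios scaling, over 57621 genes on log2(TPM + 1). It was -0.48 by DESeq2, over 185440 genes without the TPM filter on the counts of 5 libraries. By edgeR with its count filter on the same counts it was -0.06 over 36428 genes. These medians cover unlike sets of genes and are not compared. A fit with the replicate number as a block called 2 higher and 1 lower, though same-numbered libraries did not deviate together (correlations 0.098, -0.058 and 0.074), and the number is not known to pair them. DN54198_c1_g1 then had an adjusted p of 0.0523 and DN65085_c2_g2 one of 0.0145.
Depth limits the low members most: DN53514_c0_g4 rested on 0 and 1 counts in antibiotic replicates 2 and 3 and on 4 to 8 in the non-treatment libraries.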

Other observations

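Of the 57 annotated genes, 28 stayed below the threshold, and 4 of these were listed at 0 in all 6 libraries. They included genes matching the Drosophila sugar receptors Gr43a (0.364 TPM as the higher group mean) and Gr64f (0.303 TPM) and ionotropic receptors 21a (0.212 TPM) and 68a (0.146 TPM), which serve temperature and moisture sensing in Drosophila. They were below the filter of the main test, so no difference is given for them.

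The 3 genes named both gustatory and odorant receptor, the type that senses carbon dioxide in mosquitoes, were outside the rule, and 0 of 3 were called in either direction by limma. DN61352_c4_g2 averaged 0.491 ± 0.304 TPM in antibiotic libraries and 1.17 ± 0.338 TPM in non-treatment libraries, DN59263_c1_g1 averaged 0.739 ± 0.613 and 0.384 ± 0.174 TPM, and DN60623_c6_g1 averaged 0.777 ± 0.213 and 0.684 ± 0.340 TPM (SD, n = 3 each).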
